A study of Mus musculus with 12 samples.

Results

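The immediate early genes described here are 10 transcription factor genes of 3 families: Egr1, Egr2 and Egr3, Nr4a1, Nr4a2 and Nr4a3, and the AP-1 genes Fos, Fosb, Jun and Junb. They were taken as a fixed list by gene symbol, and all 10 of 10 were among the 19938 mouse genes measured, each by a single probe set with a single symbol. The question here is how these genes differ between type 1 conventional dendritic cells (cDC1) of 2 tissues, with and without a Cre that targets Cd40. cDC1 are the dendritic cells that present captured antigen to CD8 T cells, and CD40 receives licensing signals from helper T cells.

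RNA of sorted cDC1 was measured on 12 Affymetrix arrays, in 4 groups of 3. Cells came from skin draining lymph nodes (SDLN) or spleen (SPL) of naive C57BL/6 mice, whose tissues were digested before the sort. All mice carried the floxed CD40 allele on both copies (CD40fl/fl), the controls included. The groups were SDLN Xcr1Cre+, SDLN Xcr1++, SPL Xcr1Cre+ and SPL Xcr1++. In Xcr1Cre+ mice, Cre is carried by 1 copy of Xcr1, a chemokine receptor gene of cDC1, and Xcr1++ mice have no Cre. SDLN cells were gated as migratory cDC1 (CD11c intermediate) and SPL cells as CD11c high; both gates were B220-, MHC II high, XCR1+ and Sirpa-. Ages and the number of mice behind an array are not given in the sources used here, so p-values measure the spread between these samples, which may be technical.

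Immediate early genes are transcribed within minutes of a receptor signal, from proteins already in the cell, chiefly through serum response factor at the CArG box and CREB at the cAMP response element (CRE). EGR proteins are zinc finger factors, NR4A proteins are orphan nuclear receptors, and FOS and JUN proteins pair to form AP-1. In mouse dendritic cells Nr4a3 is known to be needed for CCR7-driven migration from tissue to lymph node. The same genes are also known to respond to the digestion and handling of tissue.

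The promoters of the NR4A genes, Fosb, Fos and Jun are printed because these genes moved apart between the tissues, as described below. Each is the 250 bases before a gene start in RefSeq, 5′ to 3′, and capitals mark the CRE core TGACG and the EGR site GCGNGGGCG, on either strand.
Nr4a1 (GRCm38.p6, chr15:101266596-101266845, plus strand): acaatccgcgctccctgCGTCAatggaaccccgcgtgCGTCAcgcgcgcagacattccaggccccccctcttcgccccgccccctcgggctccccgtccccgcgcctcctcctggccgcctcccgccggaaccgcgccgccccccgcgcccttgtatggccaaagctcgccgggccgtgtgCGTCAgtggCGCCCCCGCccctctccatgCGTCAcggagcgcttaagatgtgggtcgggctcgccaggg
Nr4a2 (GRCm38.p6, chr2:57124004-57124253, minus strand): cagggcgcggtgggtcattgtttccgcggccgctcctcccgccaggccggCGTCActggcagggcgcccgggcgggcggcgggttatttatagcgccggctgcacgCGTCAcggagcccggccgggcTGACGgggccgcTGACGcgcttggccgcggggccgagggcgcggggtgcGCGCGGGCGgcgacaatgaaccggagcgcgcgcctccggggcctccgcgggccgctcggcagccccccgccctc
Nr4a3 (GRCm38.p6, chr4:48045055-48045304, plus strand): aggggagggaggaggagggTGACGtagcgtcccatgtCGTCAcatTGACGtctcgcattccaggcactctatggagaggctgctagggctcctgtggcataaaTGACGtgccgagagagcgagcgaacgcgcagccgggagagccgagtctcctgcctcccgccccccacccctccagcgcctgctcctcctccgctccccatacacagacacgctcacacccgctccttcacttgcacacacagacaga
Fosb (GRCm38.p6, chr7:19310046-19310295, minus strand): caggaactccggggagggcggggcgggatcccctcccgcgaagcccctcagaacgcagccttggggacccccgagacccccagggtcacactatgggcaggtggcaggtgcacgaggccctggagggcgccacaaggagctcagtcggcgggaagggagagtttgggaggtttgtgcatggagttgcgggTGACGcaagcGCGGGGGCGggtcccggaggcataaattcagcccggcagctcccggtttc
Fos (GRCm38.p6, chr12:85473640-85473889, plus strand): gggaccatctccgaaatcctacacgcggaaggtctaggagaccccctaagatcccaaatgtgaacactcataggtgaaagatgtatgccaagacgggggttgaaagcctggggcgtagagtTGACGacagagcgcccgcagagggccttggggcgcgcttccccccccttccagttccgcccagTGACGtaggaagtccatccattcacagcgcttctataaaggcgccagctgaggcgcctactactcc
Jun (GRCm38.p6, chr4:95052223-95052472, minus strand): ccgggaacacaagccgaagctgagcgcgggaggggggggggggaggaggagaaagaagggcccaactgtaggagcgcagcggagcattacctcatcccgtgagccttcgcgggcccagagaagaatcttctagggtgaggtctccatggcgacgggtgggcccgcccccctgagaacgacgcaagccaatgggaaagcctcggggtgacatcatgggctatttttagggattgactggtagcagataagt

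RefSeq windows were found for 8 of the 10 members, all but Egr1 and Egr3. The CRE core TGACG was present 4 times in each of the 3 NR4A windows, 2 times in Fos and in 3 of the 5 Egr2 windows, 1 time in Fosb and in Junb, and 0 times in Jun. Of all 32851 promoter windows of the same length, 17.8% held it at least 1 time and 0.137% at least 4 times. The full CRE, TGACGTCA, was in 0 of the member windows and in 1.55% of all windows. The EGR site was present 1 time each in Nr4a1, Nr4a2 and Fosb, against 4.7% of all windows. The AP-1 site TGANTCA and the NR4A monomer site AAAGGTCA were in 0 member windows, against 6.75% and 1.34% of all windows. Among the 8 members with a window only Egr2 matched the CArG box (CC and GG around 6 positions of A or T), in 4 of its 5 windows, which held 2 distinct boxes; 1.47% of all windows held it. The box found in 3 overlapping Egr2 windows is shown in capitals with the bases around it:
Egr2 (GRCm38.p6, chr10:67537787-67537816, plus strand): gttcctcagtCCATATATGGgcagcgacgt
These matches are descriptions of letters in a window and were not tested for use in these cells. Bases farther from the gene start were not searched, so a window without a match does not show that the gene lacks the site. Egr1 and Egr3, without a window, were not searched for any site.

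The values are intensities, and 57.8% to 61.2% of genes on an array lay above a background of 49.8 to 63.1, the 95th percentile of olfactory receptor genes. All 10 members were above it on all 12 arrays, the lowest member value being that of Egr3. The cDC1 markers Xcr1, Clec9a, Irf8, Batf3, Cadm1, Itgae, Tlr3 and Naaa were above background in all 4 groups, but Xcr1 averaged 242 and 251 in SDLN Xcr1Cre+ and SDLN Xcr1++, against 2913 and 3250 in SPL Xcr1Cre+ and SPL Xcr1++. Of these 8 markers, 6 were called lower and 1 higher in SDLN in each genotype; in Xcr1Cre+ arrays Clec9a averaged 274 in SDLN against 4857 in SPL, Tlr3 89 against 2361 and Naaa 365 against 8036. Migratory markers, 6 of 6 measured, were higher in SDLN within each genotype (limma adjusted p under 0.05), Ccr7 among them at a log2 difference of 1.49 (SE 0.15, n = 3 per group) in Xcr1Cre+ and 1.22 (SE 0.15) in Xcr1++ arrays. The arrays numbered 1 lay apart in every group. With group means removed, they correlated with arrays numbered 2 or 3 of other groups at -0.633 to -0.319. The first 2 principal components held 79.5% and 11.2% of the variance, and the positions of the arrays on them are not given here.

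Cd40 did not follow the genotype labels on every array. In spleen it had 365, 214 and 569 on the arrays labelled Xcr1Cre+ for replicates 1, 2 and 3, against 572, 525 and 309 on those labelled Xcr1++. In SDLN it had 1427, 1388 and 3358 on the arrays labelled Xcr1Cre+, against 2138, 2777 and 1542 on those labelled Xcr1++. The ratio was below 1 for numbers 1 and 2 and above 1 for number 3 in each tissue. Whether the labels numbered 3 are exchanged, or the probes lie outside the floxed exons, was not tested. The genotype is therefore used as labelled. For the 10 members, the genotype calls and the range of the differences are also given without the arrays numbered 3.

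In migratory SDLN cDC1, all 3 EGR genes, all 3 NR4A genes and Fosb were lower than in splenic cDC1, while Fos, Jun and Junb did not pass the test. Of the 10 members, 7 were called lower and 0 higher between the SDLN and SPL arrays labelled Xcr1Cre+, where 28.3% of all genes were called, 15.2% lower and 13.1% higher (limma adjusted p under 0.05). The same counts, 7 lower and 0 higher, were found between the arrays labelled Xcr1++, where 26.1% of all genes were called, 13.2% lower and 12.9% higher. The members' median log2 difference was -1.29 in Xcr1Cre+ and -1.42 in Xcr1++ arrays, against 0.07 and 0.03 over all genes. The lower genes differed in size, with Egr2 and Nr4a1 farthest down in each genotype. These are bulk samples, in which fewer cells of a type and less RNA per cell cannot be told apart.

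Egr2, a zinc finger factor that restrains lymphocyte activation, had 219, 307 and 229 on the SDLN Xcr1Cre+ arrays, replicates 1 to 3, against 1072, 3972 and 2356 on the SPL Xcr1Cre+ arrays. On the Xcr1++ arrays it had 169, 283 and 257 in SDLN against 1522, 3367 and 4103 in SPL. Every SDLN array lay below every SPL array, with a gap even to the spleen arrays numbered 1. The log2 difference was -3.12 (SE 0.43, n = 3 per group, limma adjusted p = 6.9e-05) in Xcr1Cre+ and -3.58 (SE 0.43, limma adjusted p = 2.03e-05) in Xcr1++ arrays. That is a level 8.67-fold (95% interval 4.58 to 16.4) and 12-fold lower (6.32 to 22.7). Among 19938 genes, Egr2 stood at places 103 and 57 from the lowest difference.

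Egr1, the first zinc finger factor induced by many growth and antigen signals, had 200, 178 and 302 on the SDLN Xcr1Cre+ arrays against 378, 910 and 563 on the SPL Xcr1Cre+ arrays. Under the Xcr1++ label it had 220, 238 and 154 in SDLN against 367, 536 and 857 in SPL. The tissues did not overlap, but the spread among spleen arrays was wide. Its log2 differences were -1.39 (SE 0.34, n = 3 per group, limma adjusted p = 0.00686) and -1.46 (SE 0.34, limma adjusted p = 0.00512). The call was lost without all arrays numbered 2 in Xcr1Cre+ (-0.91, adjusted p = 0.182) and without all arrays numbered 3 in Xcr1++ (-0.95, adjusted p = 0.155).

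Egr3, which acts beside Egr2 in lymphocytes, had 180, 152 and 123 on the SDLN Xcr1Cre+ arrays against 255, 642 and 589 on the SPL Xcr1Cre+ arrays. With the Xcr1++ label it had 150, 142 and 141 in SDLN against 366, 829 and 721 in SPL. In SDLN its values were tight and near the low end of the range, and in spleen the arrays numbered 1 were the lowest. The log2 differences were -1.61 (SE 0.34, n = 3 per group, limma adjusted p = 0.0022) and -2.06 (SE 0.34, limma adjusted p = 0.000325). The Xcr1Cre+ call was lost without all arrays numbered 3 (-1.29, adjusted p = 0.0997).

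Nr4a1 (Nur77), widely used as a reporter of antigen receptor signals in T cells, had 803, 1322 and 1402 on the SDLN Xcr1Cre+ arrays against 4849, 10789 and 10253 on the SPL Xcr1Cre+ arrays. In Xcr1++ arrays it had 618, 1599 and 1135 in SDLN against 6168, 9371 and 10700 in SPL. The highest SDLN array lay well under the lowest spleen array. Nr4a1 was 7.11-fold (95% interval 4.1 to 12.3) and 8.2-fold lower (4.73 to 14.2) in SDLN, with limma adjusted p of 4.3e-05 and 2.36e-05 (n = 3 per group). By same-numbered arrays the log2 difference was -2.59, -3.03 and -2.87 in Xcr1Cre+ and -3.32, -2.55 and -3.24 in Xcr1++.

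Nr4a2 (Nurr1), an orphan receptor known for its part in dopamine neurons, had 1852, 2082 and 1862 on the SDLN Xcr1Cre+ arrays against 3895, 5093 and 5071 on the SPL Xcr1Cre+ arrays. On the Xcr1++ arrays it had 1857, 1943 and 2069 in SDLN against 4540, 5484 and 5323 in SPL. Its SDLN and SPL arrays lay far apart relative to their spread, and its tissue difference had the smallest standard error of the 10 members. The log2 differences were -1.27 (SE 0.14, n = 3 per group, limma adjusted p = 7.87e-06) and -1.38 (SE 0.14, limma adjusted p = 3.66e-06).

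Nr4a3 (Nor1) had 688, 832 and 827 on the SDLN Xcr1Cre+ arrays against 1347, 1930 and 1950 on the SPL Xcr1Cre+ arrays. Under the Xcr1++ label it had 617, 716 and 927 in SDLN against 1825, 2138 and 2239 in SPL. The factor needed for CCR7-driven migration in mouse was thus lower, and Ccr7 itself higher, on every SDLN array than on every SPL array. The log2 differences of Nr4a3 were -1.14 (SE 0.19, n = 3 per group, limma adjusted p = 0.000372) and -1.47 (SE 0.19, limma adjusted p = 4.09e-05). The 95% intervals of Nr4a1 (-3.62 to -2.04 and -3.83 to -2.24) did not overlap those of Nr4a3 (-1.55 to -0.73 and -1.88 to -1.06) in either genotype. The within-array ratio of Nr4a1 to Nr4a3 was lower in SDLN by same-numbered array for 3 of 3 numbers in each genotype, at mean log2 differences of -1.69 ± 0.11 and -1.56 ± 0.52 (SD, n = 3; exact two-sided permutation p = 0.1 each, the smallest 3 against 3 arrays allow).

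**Figure D1:**
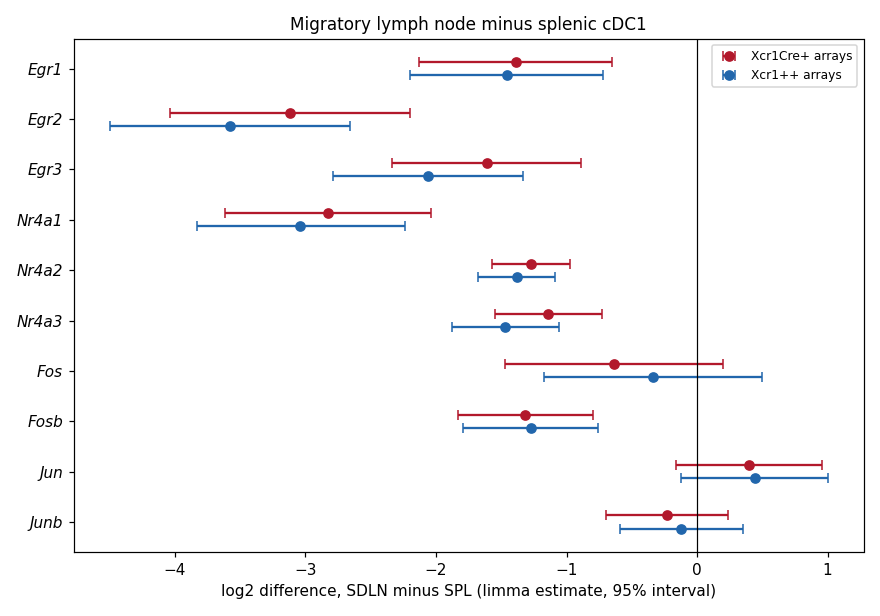
Log2 difference between SDLN and SPL arrays (x axis) for each of the 10 members (rows), in the arrays labelled Xcr1Cre+ (red) and Xcr1++ (blue); points are limma estimates and bars their 95% intervals, from 3 arrays a group. The 3 EGR genes, 3 NR4A genes and Fosb lie left of 0 with both intervals, Egr2 and Nr4a1 farthest, while the intervals of Fos, Jun and Junb include 0.

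Within AP-1, Fosb alone passed. Fosb, whose protein pairs with JUN proteins, had 2073, 3413 and 3570 on the SDLN Xcr1Cre+ arrays against 6265, 8706 and 7147 on the SPL Xcr1Cre+ arrays. With the Xcr1++ label it had 1871, 3475 and 2866 in SDLN against 5630, 6577 and 7129 in SPL. The tissues did not overlap. The log2 differences were -1.32 (SE 0.24, n = 3 per group, limma adjusted p = 0.00075) and -1.27 (SE 0.24, limma adjusted p = 0.000982).

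Fos, the founding partner of JUN in AP-1, had 970, 1632 and 1810 on the SDLN Xcr1Cre+ arrays against 1377, 3207 and 2434 on the SPL Xcr1Cre+ arrays. In Xcr1++ arrays it had 956, 2080 and 1642 in SDLN against 1155, 1979 and 2891 in SPL. The tissues overlapped in each genotype. The log2 differences of -0.64 (95% interval -1.47 to 0.20, n = 3 per group, limma adjusted p = 0.261) and -0.34 (-1.17 to 0.50, limma adjusted p = 0.648) did not pass. With the replicate number as a block, Fos was called lower in Xcr1Cre+ (limma adjusted p = 0.00282), and not in Xcr1++ (limma adjusted p = 0.0911). It was also called in Xcr1Cre+ without all arrays numbered 1 (-0.70, limma adjusted p = 0.00685). The ratio of Fosb to Fos within an array was lower in SDLN for 3 of 3 numbers in each genotype, at mean log2 differences of -0.68 ± 0.37 and -0.94 ± 0.41 (SD, n = 3; exact two-sided permutation p = 0.1 each).

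Jun, the DNA-binding partner of FOS proteins, was the 1 member with a positive difference. It had 2435, 3357 and 3506 on the SDLN Xcr1Cre+ arrays against 1709, 3209 and 2271 on the SPL Xcr1Cre+ arrays. On the Xcr1++ arrays it had 2094, 3393 and 2985 in SDLN against 1805, 1687 and 2785 in SPL. The groups overlapped, though each SDLN array exceeded the SPL array of its own number. The log2 differences were 0.40 (95% interval -0.16 to 0.96, n = 3 per group, limma adjusted p = 0.293) and 0.44 (-0.12 to 1.0, limma adjusted p = 0.283). In Xcr1++ Jun was called higher without all arrays numbered 1 (0.55, limma adjusted p = 0.048) and with array weights (0.81, limma adjusted p = 0.000574).

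Junb, a JUN paralogue that can oppose Jun, had 1562, 2295 and 1977 on the SDLN Xcr1Cre+ arrays against 1792, 2693 and 2362 on the SPL Xcr1Cre+ arrays. Under the Xcr1++ label it had 1587, 2505 and 2492 in SDLN against 2008, 2290 and 2765 in SPL. These values overlapped throughout. The intervals of its log2 difference, -0.70 to 0.24 around -0.23 and -0.59 to 0.35 around -0.12, include 0 (n = 3 per group, limma adjusted p = 0.486 and 0.798).

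**Figure D2:**
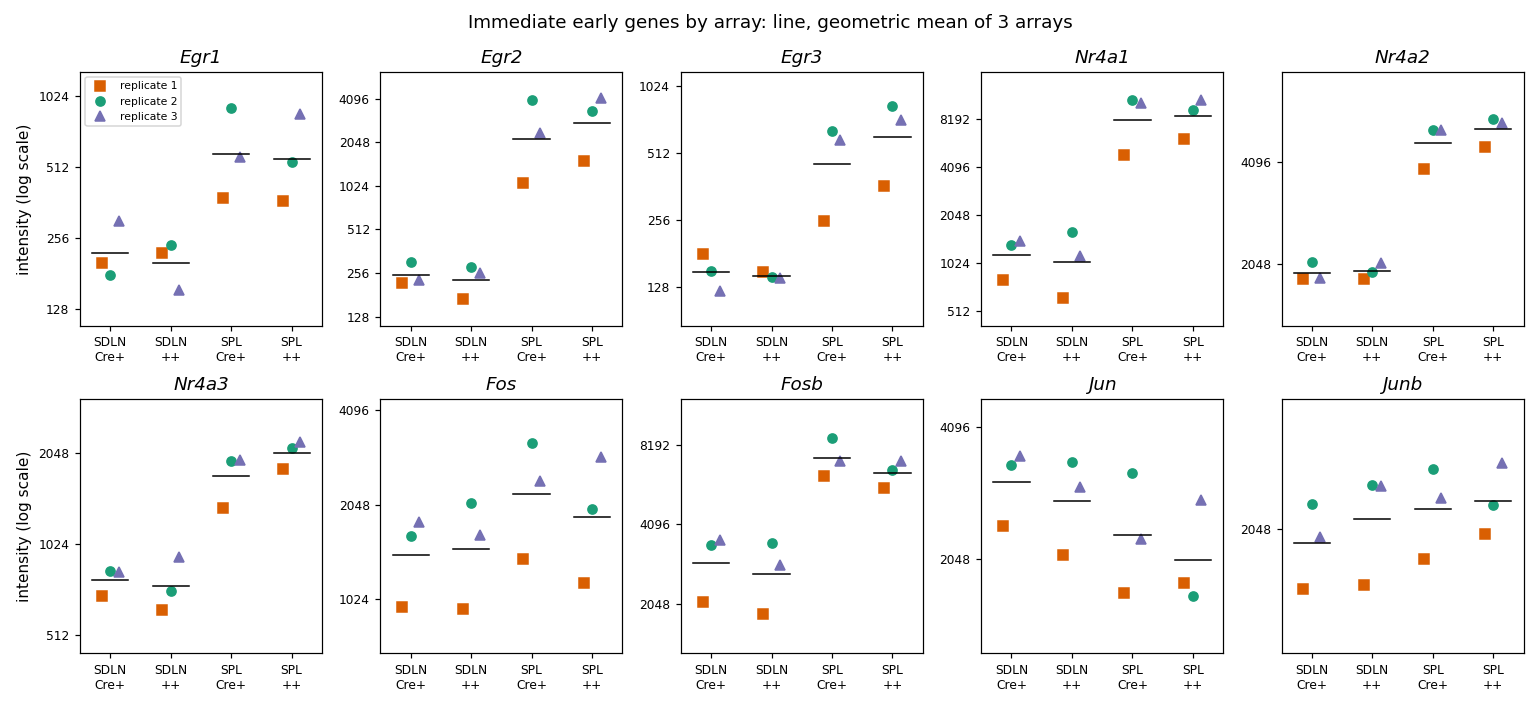
Intensity (log axis, 1 scale per panel) of the 10 members on each of the 12 arrays, with groups left to right SDLN Xcr1Cre+, SDLN Xcr1++, SPL Xcr1Cre+ and SPL Xcr1++; symbols mark replicate 1 (square), 2 (circle) and 3 (triangle) and the line is the geometric mean of 3 arrays. In the EGR and NR4A panels and in Fosb all 6 SDLN arrays sit below all 6 SPL arrays, and in the Fos, Fosb, Nr4a1, Nr4a2, Nr4a3, Egr2 and Junb panels the replicate 1 array is the lowest of each group.

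The genes around these families also differed between the tissues, in both directions. The counts for this list and those below stand beside the calls over all genes. These were 15.2% lower and 13.1% higher in Xcr1Cre+ arrays, and 13.2% lower and 12.9% higher in Xcr1++ arrays. Of 14 partners of AP-1 and EGR, 8 were lower and 2 higher in SDLN in each genotype. Fosl2, an AP-1 subunit of the FOS family, averaged 307 ± 44.4 in SDLN and 1235 ± 143 in SPL Xcr1Cre+ arrays (SD, n = 3 each), and Jdp2, an AP-1 repressor, 127 ± 28.0 and 536 ± 114. Mafk, a small MAF protein, had log2 differences of -1.96 and -1.52 (SE 0.20 each) in Xcr1Cre+ and Xcr1++ arrays. Nab2, a corepressor that EGR proteins induce and bind, was at -0.83 and -1.26 (SE 0.19 each). Partners thus had a median log2 difference of -0.65 and -0.68, against 0.07 and 0.03 over all genes.

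Of 36 other immediate early genes, 13 were lower and 12 higher in SDLN in each genotype, so that the class did not move as a whole. Plk3, a stress-response kinase, averaged 95 ± 12.6 in SDLN and 1065 ± 316 in SPL Xcr1Cre+ arrays (SD, n = 3 each), and 78 ± 11.2 and 1269 ± 211 in Xcr1++ arrays. On the higher side, Arc, a regulator of synapses that has also been linked to dendritic cell migration in mouse, averaged 1926 ± 514 in SDLN and 138 ± 8.40 in SPL Xcr1Cre+ arrays. Ptgs2, the inducible cyclooxygenase, averaged 1745 ± 615 and 172 ± 43.1, and Irf1, an interferon response factor, 1762 ± 499 and 246 ± 42.6 in the same groups. The log2 differences in Xcr1++ arrays were 3.76 for Arc (SE 0.20), 3.75 for Ptgs2 (SE 0.30) and 2.87 for Irf1 (SE 0.22).

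A list of 14 feedback inhibitors held inhibitors of MAP kinase signalling and the calcineurin inhibitor Rcan1. Of these 14, 5 were lower and 1 higher in Xcr1Cre+ arrays, and 7 lower, Rcan1 among them, and 1 higher in Xcr1++ arrays. Dusp6, an ERK phosphatase, was above background on only 2 of 3 SDLN Xcr1Cre+ arrays and 1 of 3 SDLN Xcr1++ arrays; it averaged 64 ± 5.72 in SDLN and 411 ± 214 in SPL Xcr1Cre+ arrays (SD, n = 3 each). Dusp16, a JNK phosphatase, had log2 differences of -1.33 and -1.32 (SE 0.40 each), and Spred2, an inhibitor of RAS signalling, of -0.89 and -0.83 (SE 0.20 each). Its paralogue Spred1 was higher, at 2.25 and 2.16 (SE 0.17 each).

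Of 22 measured kinases and factors upstream, 8 were lower and 5 higher in Xcr1Cre+ arrays, and 7 lower and 6 higher in Xcr1++ arrays. Mapk14, the p38 alpha kinase, averaged 141 ± 28.1 in SDLN and 1254 ± 270 in SPL Xcr1Cre+ arrays (SD, n = 3 each). Mef2c, a transcription factor of calcium-driven genes, was not above background on any SDLN array and was at least 9.37-fold and 8.46-fold lower there than in SPL, measured against background; its means were 45 and 44 in SDLN against 542 and 478 in SPL. Crem, a CREB family repressor and activator, had log2 differences of -1.01 and -1.46 (SE 0.24 each). Elk3, a partner of serum response factor, was higher, at 1.99 and 2.10 (SE 0.21 each).

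**Figure D3:**
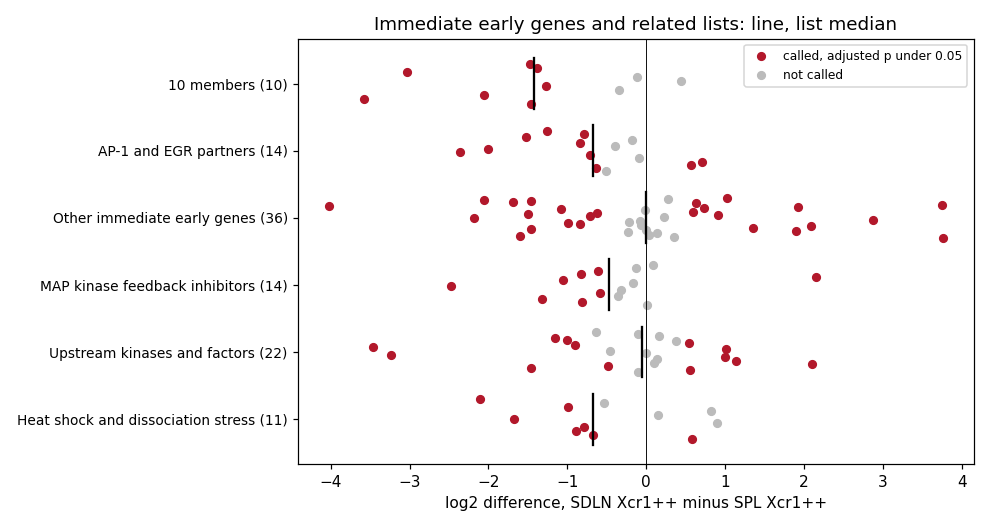
Log2 difference between SDLN and SPL arrays labelled Xcr1++ (x axis) for the genes of each list (rows, number measured in brackets); red points were called by limma, grey were not, and the line is the list median. The 10 members have the lowest median (-1.42), and the list of other immediate early genes spans -4.02 to 3.76.

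Values of other cells and of stress genes moved with the tissue as well. Of 11 measured heat shock and dissociation stress genes, 7 were lower and 1 higher in Xcr1Cre+ arrays, and 6 lower and 1 higher in Xcr1++ arrays. The chaperone genes had log2 differences, in Xcr1Cre+ and Xcr1++ arrays, of -2.86 and -2.11 for Hsph1 (SE 0.42 each), -2.04 and -1.68 for Hspa5 (SE 0.18 each), -1.6 and -0.99 for Hspd1 (SE 0.26 each) and -1.49 and -0.88 for Dnajb1 (SE 0.25 each). The summed intensity of 6 T cell markers ran from 734 to 1478 in SDLN Xcr1Cre+ and 891 to 1451 in SDLN Xcr1++, against 460 to 631 in SPL Xcr1Cre+ and 517 to 563 in SPL Xcr1++. Of these 6, 5 were called higher in SDLN in Xcr1Cre+ and 4 in Xcr1++ arrays. The sum of 6 macrophage and monocyte markers ran from 513 to 524 and 514 to 548 in these SDLN groups, against 2656 to 2799 and 2404 to 2728 in the SPL groups, with 3 and 2 of 6 called lower in SDLN, Cd68 and Lyz2 carrying most of the sum. The macrophage markers Adgre1 and Mertk were below background on every array, at most 48 and 41, as were the B cell marker Cd79a, at most 32, and the NK cell marker Ncr1, at most 36. Other markers of the same 3 lists were above background on every array of both tissues. Csf1r, Cd79b and Prf1 had lowest values of 67, 66 and 77, against a highest background of 63.1. Further markers were higher in SPL: Ms4a1 averaged 36 and 35 in SDLN Xcr1Cre+ and Xcr1++ against 209 and 165 in SPL, and Klrk1 averaged 171 and 165 in SDLN against 685 and 526 in SPL. In each genotype 1 of 5 B cell and 1 of 5 NK cell markers were called lower in SDLN. The summed NK list ran from 301 to 411 and 341 to 359 in the SDLN groups against 830 to 903 and 634 to 765 in the SPL groups. The part of these genes, of the differing gates and of tissue handling in the members' differences was not tested.

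The replicate 1 arrays were lower for most members, in both tissues and under both labels. Of the 10 members, 7 (Egr2, Nr4a1, Nr4a2, Nr4a3, Fos, Fosb and Junb) had their lowest value on the replicate 1 array in all 4 groups, against 14.2% of all genes. The share was 50% for the upstream kinases and factors and 27.8% for the other immediate early genes. It was 18.2% for the heat shock list and 14.3% each for the partners and the feedback inhibitors. On the log2 scale, replicate 1 minus the mean of replicates 2 and 3 was -0.83, -0.95, -1.02 and -1.05 for Fos, in the order SDLN Xcr1Cre+, SDLN Xcr1++, SPL Xcr1Cre+ and SPL Xcr1++. Over all genes the median was 0.06, 0.07, 0.07 and 0.05. Nr4a1 was at -0.76, -1.13, -1.12 and -0.70, and Nr4a2 at -0.09, -0.11, -0.38 and -0.25. Nr4a3 lay between -0.53 and -0.26, Junb between -0.66 and -0.33, and Jun between -0.66 and -0.26. Jun was lowest on the replicate 1 array in 3 of the 4 groups.

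This shift was not alike across tissues for every member. Egr2 was at -0.27 and -0.68 in SDLN (Xcr1Cre+ and Xcr1++) against -1.51 and -1.29 in spleen. Egr3 was at 0.40 and 0.08 in SDLN against -1.27 and -1.08 in spleen, and Egr1 at -0.22 and 0.20 in SDLN against -0.92 and -0.89 in spleen. Fosb went the other way, with -0.75 and -0.75 in SDLN and -0.33 and -0.28 in spleen. By same-numbered array, Egr2 and Egr3 had their smallest tissue difference among the arrays numbered 1 in each genotype, at -0.50 for Egr3 in Xcr1Cre+ beside -2.07 and -2.26 for numbers 2 and 3. Egr1 did so in Xcr1++ (-0.74, -1.17 and -2.47 for numbers 1 to 3) and not in Xcr1Cre+ (-0.92, -2.35 and -0.90). The labels do not say what the number stands for, and these shifts are described without a test.

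**Figure D4:**
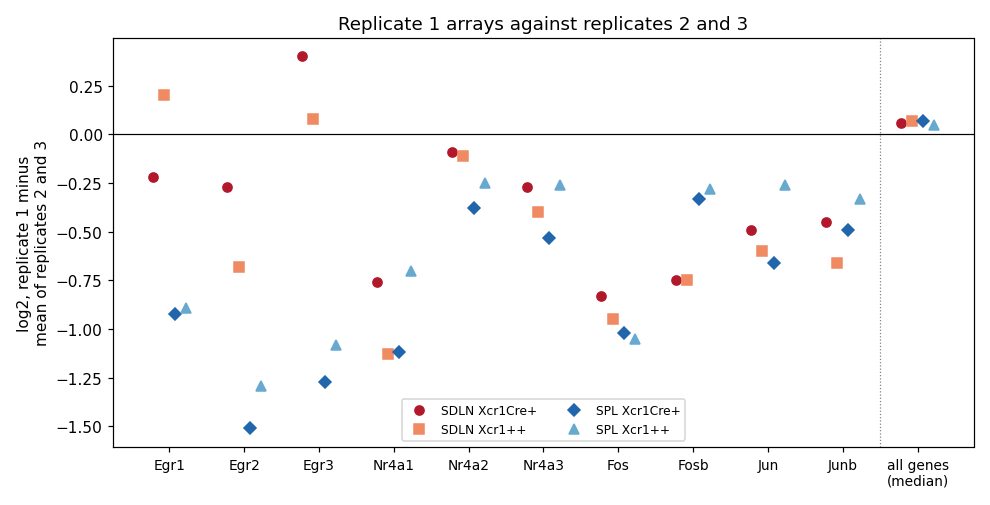
Log2 level on the replicate 1 array minus the mean of replicates 2 and 3 (y axis) for the 10 members and the median of all genes (x axis), in the 4 groups (symbols). Fos and Nr4a1 lie between -1.13 and -0.70 in every group, the EGR genes are lowest in spleen, and the median of all genes lies at 0.05 to 0.07.

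Without all arrays numbered 1, 8 of the 10 members were called in each genotype: 8 lower in Xcr1Cre+, Fos among them, and 7 lower with Jun higher in Xcr1++. Of all 19938 genes, that fit called 7684 in Xcr1Cre+ and 6906 in Xcr1++. Without all arrays numbered 2, 6 and 7 members were called in Xcr1Cre+ and Xcr1++, beside 3081 and 3093 of all genes. Without those numbered 3, 6 and 6 members were called, beside 3094 and 2865 of all genes. By arrays of the same number, the members Egr1, Egr2, Egr3, Nr4a1, Nr4a2, Nr4a3 and Fosb were lower in SDLN for 3 of 3 numbers in each genotype. The share of all genes that did so is not given here. With the replicate number as a block, 8 members were called lower in Xcr1Cre+, where that fit called 41% of all genes and 20.4% lower, and 7 in Xcr1++, where it called 36% and 17.8% lower.

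Between the arrays labelled Xcr1Cre+ and those labelled Xcr1++, no member passed the test in either tissue. In spleen 0 of 10 members were called by limma, and 0% of all genes were called; at an unadjusted p under 0.05 the counts were 0 members and 1.79% of all genes. The log2 differences ran from -0.39 for Egr3 (95% interval -1.12 to 0.33) to 0.23 for Fos (-0.60 to 1.07), n = 3 per group, with a median of -0.06 over the members. All 3 NR4A genes were slightly on the lower side, Nr4a3 at -0.26 (SE 0.19, limma adjusted p = 1), Nr4a2 at -0.13 (SE 0.14) and Nr4a1 at -0.07 (SE 0.37). By number, the ratio of Xcr1Cre+ to Xcr1++ was 0.738, 0.903 and 0.871 for Nr4a3, 0.858, 0.929 and 0.953 for Nr4a2 and 0.697, 0.774 and 0.817 for Egr3. With the labels of number 3 unsettled, these ratios do not show a shared direction over 3 numbers: exchanged labels would turn the last of each. Without all arrays numbered 3, 0 members were called, and the log2 differences ran from -0.45 for Egr3 (SE 0.46) to 0.47 for Fos (SE 0.51), with Nr4a3 at -0.29 (SE 0.26). With the replicate block, Nr4a3 had an unadjusted p of 0.02 and a limma adjusted p of 0.983.

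In SDLN likewise 0 of 10 members were called, and 0% of all genes were; at an unadjusted p under 0.05 the counts were 0 members and 2.02% of all genes. The log2 differences ran from -0.16 for Junb (95% interval -0.63 to 0.31) to 0.15 for Fosb (-0.37 to 0.66), with a median of 0.09 (n = 3 per group). Without all arrays numbered 3, 0 members were called, and the differences ran from -0.28 for Egr1 (SE 0.38) to 0.25 for Egr2 (SE 0.60). The intervals of the noisier genes were wide, Egr2 for example from -0.81 to 1.03 around 0.11, so that differences within that range remain possible. The size of difference that 3 arrays a group could have called was not measured.

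The genotype difference was not shown to vary with the tissue for any member. The difference of differences (SDLN minus SPL) was called for 0 of 10 members and 0% of all genes by limma; at an unadjusted p under 0.05 the counts were 0 members and 1.64% of all genes. It was at most 0.46 for Egr2 (SE 0.61, limma adjusted p = 1) and at least -0.30 for Fos (SE 0.55), n = 3 arrays in each of the 4 groups. Nr4a3 was at 0.33 (SE 0.27), with an unadjusted p of 0.0332 and a limma adjusted p of 0.838 with the replicate block. Without all arrays numbered 3 it ran from -0.68 for Egr1 (SE 0.54) to 0.63 for Egr3 (SE 0.65), and 0 members were called.

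**Figure D5:**
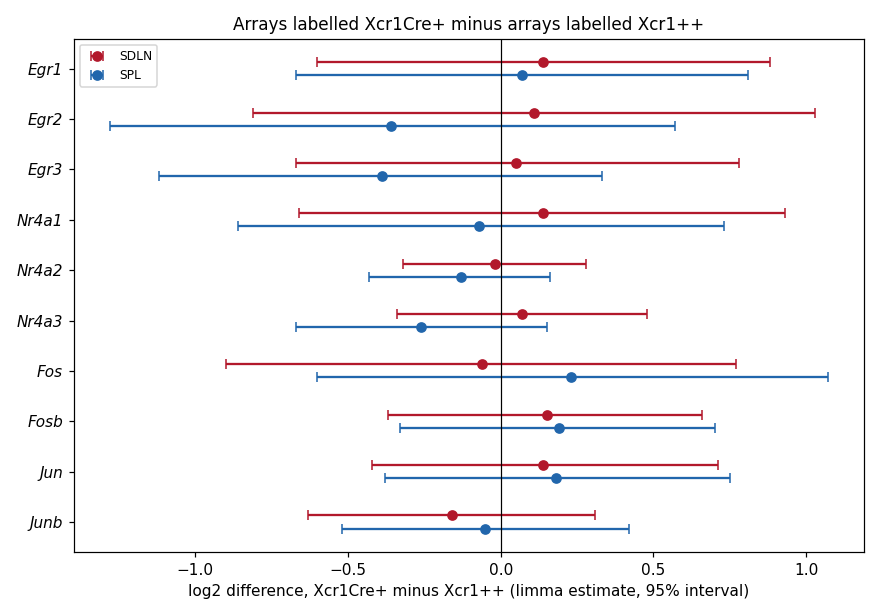
Log2 difference between arrays labelled Xcr1Cre+ and Xcr1++ (x axis) for the 10 members (rows), in SDLN (red) and SPL (blue); points are limma estimates and bars their 95% intervals, from 3 arrays a group. All 20 intervals include 0.

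Among the related lists, 0 genes were called between the genotype labels. Those with the smallest unadjusted p in spleen were Rcan1, a calcineurin inhibitor and target of calcium signals, at -0.52 (SE 0.15, limma unadjusted p = 0.00392, adjusted p = 1) and Gadd45b, a stress gene, at -0.44 (SE 0.14, limma unadjusted p = 0.0058, adjusted p = 1). In SDLN they were Cebpd, a C/EBP factor, at -0.36 (SE 0.17, limma unadjusted p = 0.0488, adjusted p = 1) and Klf10, a zinc finger factor, at 0.43 (SE 0.20, limma unadjusted p = 0.049, adjusted p = 1). Klf10 was not above background on any of the SDLN Xcr1++ arrays.

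With group means removed, all 45 pairs of members had a positive Pearson's r over the 12 arrays (0.17 to 0.96), which include the arrays numbered 1. Over the 8 arrays numbered 2 and 3, which leave 2 arrays a group, 17 of the 45 were negative. The 6 AP-1 pairs stayed between 0.44 and 0.96 there, but Nr4a1 was at -0.84 with Nr4a3 and -0.64 with Nr4a2, and Egr1 at -0.52 with Egr3. On those arrays 2 of the 3 NR4A pairs and 1 of the 3 EGR pairs were negative, and the rest of these pairs were positive. With 2 arrays a group these r rest on few differences, some of them small. For Nr4a2, replicate 2 minus replicate 3 lay between -0.09 and 0.16 in the 4 groups. Likeness was measured as Pearson's r to the mean of a family over 12 arrays, among 10462 other genes above background on all arrays. The genes most like the EGR mean were Cdc25a, a cell cycle phosphatase, at 0.982, Btbd19 at 0.979 and B4galt4, a galactosyltransferase, at 0.971. Those most like the NR4A mean were Zdhhc21, a palmitoyltransferase, at 0.996, Zfp638 at 0.993 and Slamf7, a SLAM family receptor, at 0.992. Those most like the AP-1 mean were Ints6, an Integrator subunit, at 0.982, the clock gene Bmal1 under its older symbol Arntl at 0.980, and Tagap at 0.979. Over the 8 arrays numbered 2 and 3 the same values were 0.842, 0.790 and 0.748 for EGR, 0.952, 0.907 and 0.464 for NR4A, and 0.976, 0.984 and 0.931 for AP-1. The top genes were chosen as the highest of many, so their r is a description of these arrays.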

How the data were processed

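Total RNA of sorted cDC1 was labelled with the Affymetrix WT Pico kit, per the labels' protocols, and measured on 12 arrays. The deposited intensities come from the authors' use of Expression Console and RMA (named, without versions, in the submitters' processing notes). Their range of 8.23 to 20398, with array medians between 66.1 and 74.4, is that of a linear scale, and log2 was taken here. The array annotation was older than the symbols used, which were updated by Entrez number to RefSeq (21698 of 21789 single-symbol probe sets). Of 28853 probe sets, 1621 with several symbols and 5443 not listed were left out, and the brightest probe set per gene was kept, giving 19938 genes. Precision is limited by having 3 arrays a group.

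The fit used 4 group means per gene in limma 3.58.1 under R 4.3.3, eBayes with trend, two-sided tests and Benjamini-Hochberg adjustment over all genes in each of 5 comparisons; calls are at adjusted p under 0.05. The fit was tested on simulated data. The replicate numbers were used to line up arrays in the block and in differences by number, and not in the main fit. With group means removed, same-numbered arrays correlated at 0.293 to 0.729, and number 2 against 3 at 0.177 to 0.557. The median was 0.609 for pairs both numbered 1. It was 0.416 for both numbered 2 and 0.354 for both numbered 3, beside 0.394 for number 2 against 3. Number 1 thus stood apart, but numbers 2 and 3 are not shown to be matched across groups. Differences by same number are descriptions. The 10 members and the gene lists were chosen with earlier results of these data known, and their tests are not independent of those results. Of each list, the 4 called genes with the largest mean tissue difference are named, and in genotype comparisons the 2 with the smallest p. Alternatives were a replicate block, leaving out arrays, the mean of probe sets, an offset of 32, renewed normalization, a filter on dim genes, no trend and array weights.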

Additional observations from a re-analysis of the deposited data

How the results depend on the processing

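Over 23 alternatives, 1063 of 1150 member values kept their direction and their side of the threshold, 3 lost and 4 gained a call (all given above) and 80 changed sign, none of which had a call; the cause was not tested. Leaving out single arrays left 7 members called in each tissue comparison, and the genes called at 4543 to 6101 (5648 with all arrays, 8170 with the replicate block) in Xcr1Cre+ and 4325 to 5525 (5207, 7178 with the block) in Xcr1++. The block changed no other call than that of Fos. Without all arrays numbered 2, 3081 and 3093 genes were called in Xcr1Cre+ and Xcr1++, without those numbered 3, 3094 and 2865, but without those numbered 1, 7684 and 6906; with array weights 8933 and 9020 were called. Array weights also called 51 genes between genotypes in spleen, 2 in SDLN and 3 for their difference.

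Signs turned as follows. For SDLN minus SPL in Xcr1++, Junb was at 0.067 with array weights and from -0.231 to 0.098 without single arrays. For Xcr1Cre+ minus Xcr1++ in spleen, without all arrays numbered 1 Nr4a1 was at 0.071 and Junb at 0.003, without numbers 2 Egr1 was at -0.281 and Jun at -0.186, without numbers 3 Junb was at 0.035, and with array weights Nr4a1 was at 0.102 and Junb at 0.033. Without single spleen arrays the values ran from -0.259 to 0.384 for Egr1, -0.796 to 0.149 for Egr2, -0.754 to 0.030 for Egr3, -0.301 to 0.304 for Nr4a1, -0.116 to 0.574 for Fos, -0.050 to 0.410 for Jun and -0.182 to 0.112 for Junb. In SDLN, without numbers 1 Egr2 was at -0.026 and Egr3 at -0.049, without numbers 2 Nr4a3 was at -0.003 and Fos at 0.080, without numbers 3 Egr1 was at -0.279 and Nr4a2 at 0.048. There Nr4a2 was at 0.037 after renewed quantile normalization, and Egr2, Egr3 and Nr4a1 at -0.146, -0.067 and -0.194 with array weights. Without single SDLN arrays the values ran from -0.089 to 0.292 for Egr1, -0.117 to 0.257 for Egr2, -0.077 to 0.198 for Egr3, -0.238 to 0.448 for Nr4a1, -0.074 to 0.023 for Nr4a2, -0.063 to 0.231 for Nr4a3, -0.380 to 0.212 for Fos, -0.105 to 0.397 for Fosb and -0.057 to 0.309 for Jun. For the difference of the genotype differences (SDLN minus SPL), the values without single arrays ran from -0.247 to 0.397 for Egr1, -0.040 to 0.905 for Egr2, -0.170 to 0.517 for Nr4a1, -0.014 to 0.198 for Nr4a2, -0.638 to 0.053 for Fos, -0.292 to 0.209 for Fosb, -0.265 to 0.194 for Jun and -0.327 to 0.040 for Junb. There, without numbers 1 Nr4a1 was at -0.055, without numbers 2 Fos was at 0.077, Fosb at 0.154, Jun at 0.411 and Junb at 0.017, and without numbers 3 Egr1 was at -0.683. Fosb was at 0.020 after renewed quantile normalization, and Egr1 and Nr4a1 at -0.016 and -0.296 with array weights.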

Other observations

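The heat shock and dissociation stress genes lay on 1 side between the genotype labels in spleen. All 11 measured genes had a positive log2 difference, Xcr1Cre+ minus Xcr1++, with a median of 0.32 and a range of 0.05 to 0.96. Over all genes the median was -0.01, and 9152 of 19938 were positive. None was called by limma, 2 had an unadjusted p under 0.05, and in SDLN 6 of the 11 were positive with a median of 0.01. The immediate early members did not share this sign, with 4 of 10 positive in spleen.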
